A study of Arabidopsis thaliana with 3 samples.

Results

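The SLAC/SLAH and CLC gene families of Arabidopsis thaliana encode membrane proteins that move nitrate and chloride, and 10 of their genes were examined for DNA recovered with the transcription factor GRF5. They are the slow anion channel gene SLAC1 (AT1G12480) and its homologues SLAH1 (AT1G62280), SLAH2 (AT4G27970), SLAH3 (AT5G24030) and SLAH4 (AT1G62262), and the CLC genes CLCA (AT5G40890), CLCB (AT3G27170), CLCC (AT5G49890), CLCD (AT5G26240) and CLCE (AT4G35440). Every peak that the authors' annotation gives to one of these genes was taken, which came to 10 of 28427 peaks in replicate 1 and 10 of 27133 in replicate 2. The values below were thus selected on a called peak that carries the gene's label, and they are a description with no test.

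DNA affinity purification sequencing (DAP-seq) mixes a purified transcription factor with fragmented genomic DNA and sequences the fragments it retains. The data used were 2 GRF5 libraries, replicates 1 and 2, each with its own peak list called against a single input library. For the GRF5 libraries, seedlings of the wild type (Col-0) were moved at 7 days of age to 0.2 mM nitrate for 3 days before DNA was taken from their roots, and His-tagged GRF5 made in Escherichia coli was recovered from the mix with an antibody against GRF5. The input library carries the same genotype, tissue and growth protocol and has the treatment label "control". No pull-down without GRF5 and no library from seedlings on 5 mM nitrate was analysed here, so nothing below compares nitrate levels. The design text of the series gives the libraries' names to a chromatin immunoprecipitation, while the library titles and protocols describe DAP-seq, which is followed here. The DNA was purified before GRF5 was added, so the peaks describe recovery of DNA outside chromatin. Biological replicates is the labels' term, with no word on separate preparation of DNA or protein, so the spread between the libraries may be technical.

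Plant cells take up nitrate, store it in the vacuole and release it again across the plasma membrane, and both families take part in this. SLAC/SLAH proteins are channels of the plasma membrane that let anions leave the cell: SLAC1 acts in guard cells, where it closes stomata, SLAH3 is a nitrate-preferring channel of guard cells and roots, SLAH2 conducts nitrate in the root stele, and SLAH1 acts in the root stele, where it works with SLAH3 in loading chloride into the xylem. CLC proteins sit in internal membranes, as exchangers or channels: CLCA fills the vacuole with nitrate in exchange for protons, CLCB is a close relative in the same membrane, CLCC is a vacuolar protein of chloride handling and salt tolerance, CLCD is found in the trans-Golgi network and CLCE in chloroplast thylakoids.

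Shared GRF5 peaks at these genes all touched a coding exon or an intron of the gene, and 1 of them, at SLAH3, was strong. A peak was called shared when a peak from each list covered 50% or more of the shorter of the pair and both carried the gene's label. A shared peak, whatever its region, was present at 5 of the 10 genes (SLAH3, SLAH4, CLCC, CLCD and CLCE), against 54.4% of the 27444 nuclear protein-coding genes, so the share was near that of all genes. All 5 had it over a coding exon (50%, against 29.1% of all genes), and 4 of them, without SLAH4, over an intron (40%, against 25.6%). None of the 10 had a shared promoter peak, while 35.2% of all genes did. A peak in at least 1 list was present at 9 of the 10, against 78.8% of all genes. SLAH2 was the one without, as were 21.2% of all genes. Among peaks with a −log10 q of at least 5, 3 genes had a shared one (SLAH3, CLCC and CLCD, against 28.2% of all genes), and among peaks of at least 2-fold SLAH3 alone did, against 14.4%. With 10 genes and a single pair of libraries these shares carry no test.

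**Figure D1:**
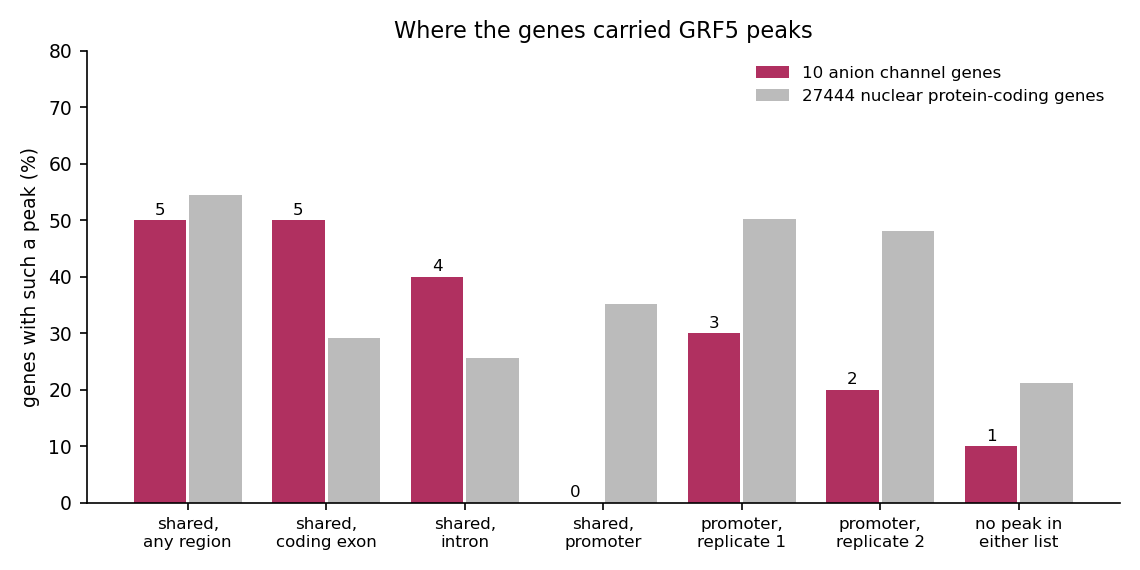
Share of genes, in percent, with a GRF5 peak of each kind, for the 10 anion channel genes (left bars, number of genes above) and for the 27444 nuclear protein-coding genes (right bars). No anion channel gene had a shared promoter peak, while 5 had a shared peak over a coding exon.

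SLAH3, the nitrate-preferring channel gene, carried the strongest peak of both families. The peak lay on chromosome 5 over a coding exon and sequence labelled intergenic, at chr5:8117730-8118769 in replicate 1 and chr5:8117434-8118757 in replicate 2 (TAIR10). The authors' annotation has no class for untranslated regions, so whether the intergenic label covers one was not checked. Which of the labelled parts holds the summit was not determined. The name SLAH3 coding exon peak, used below, follows the gene's label alone. At the summit of the SLAH3 peak 212 fragments were piled up in replicate 1 and 195 in replicate 2. Fold enrichment, the authors' value for how far the pileup exceeds the input-based background, was 4.76 in replicate 1 and 4.67 in replicate 2. The 95% exact Poisson intervals, which cover counting error only, ran from 4.14 to 5.44 and from 4.04 to 5.36. The summits lay 6 bp apart, and the log2 ratio between replicates was 0.03, where the SD of this ratio over all shared pairs was 0.19. The background under the peak, worked out from pileup and fold, was 43.7 fragments in replicate 1 and 41.0 in replicate 2. The medians of this derived value over the lists were 46.1 and 43.1. Coverage of the input library itself was not examined.

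By the mean of both replicates, 4.71 ± 0.07 (SD, n = 2), the SLAH3 peak ranked 50 among 19008 shared pairs. In the single lists it ranked 52 in replicate 1 and 56 in replicate 2. A shared peak of at least 3-fold in both lists was carried by 308 of all genes (1.12%) and, of the 10, by SLAH3. Among the 14928 genes with a shared peak, 64 had a strongest one of at least the SLAH3 value, SLAH3 included. A class was drawn from the SLAH3 peak's own labels: coding exon and intergenic in both lists, and promoter in neither. It held 247 shared pairs (1.30%), with labels of any gene counted and intron labels allowed. Of these, 3 reached 3-fold in both lists, and SLAH3 ranked 2 among the 247 pairs, whose median was 1.97.

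The strong site lay at the end of SLAH3 that is farther from its promoter. A second shared peak, annotated to an intron, had its summit 4189 bp away in replicate 1 and 4132 bp away in replicate 2. That intron peak was weak, with 71 fragments and 1.60-fold in replicate 1 and 74 fragments and 1.82-fold in replicate 2. It lay at chr5:8122433-8122768 in replicate 1, and its summits were 51 bp apart. Fold enrichment at the strong site was 2.98 times that at the intron in replicate 1 and 2.56 times in replicate 2. Farther on in the same direction, replicate 1 had a promoter peak at chr5:8124264-8124784 with 87 fragments and 1.96-fold, its summit 6103 bp from that of the strong peak. Replicate 2 had no peak there, and its nearest one began 638 bp away. In replicate 2 the strong peak was wider, 1324 bp against 1040 bp in replicate 1, and reached coding sequence of the neighbour MIND (AT5G24020).

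**Figure D2:**
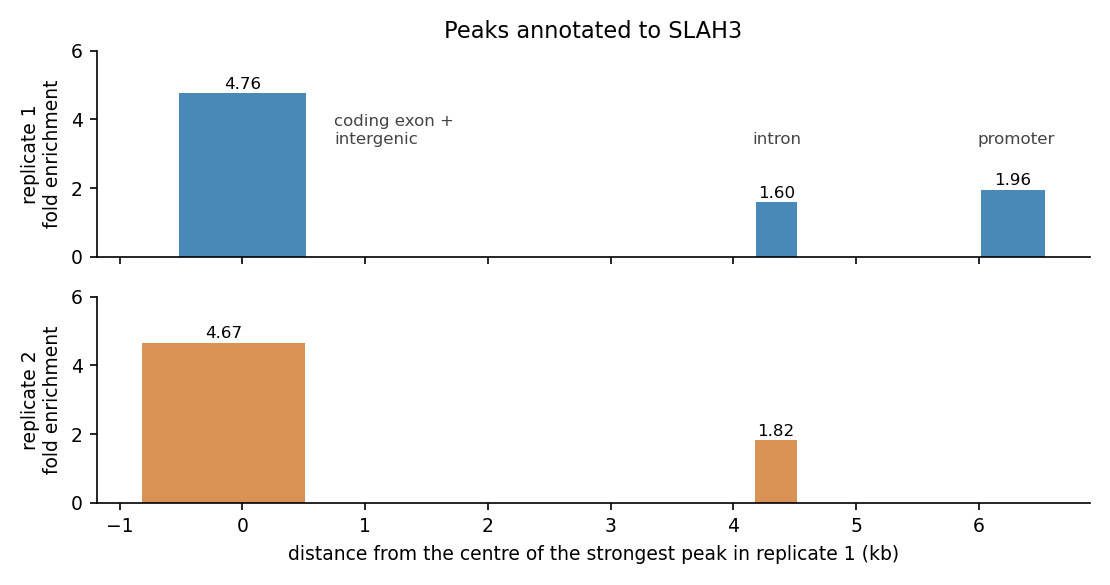
Peaks annotated to SLAH3, drawn as blocks of their width (distance in kb from the centre of the strongest peak in replicate 1) and fold enrichment (height, printed above), for replicate 1 (upper panel) and replicate 2 (lower panel). The coding exon peak, also labelled intergenic, reached 4.76 and 4.67. The intron peak reached 1.60 and 1.82, and the promoter peak of 1.96 was present in replicate 1 alone.

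The other SLAC/SLAH genes carried weaker peaks, and the libraries placed several of them differently. SLAH4, a homologue close to SLAH1 in the genome, had a shared peak over a coding exon at chr1:23000248-23000532 in replicate 1. It held 90 fragments with 1.91-fold enrichment in replicate 1 and 75 fragments with 1.62-fold in replicate 2, with summits 63 bp apart. The same peak was also annotated to the promoter of MEF9 (AT1G62260). A further coding exon peak of SLAH4, at chr1:23001227-23001529 with 1.53-fold, was present in replicate 1 alone, and its −log10 q of 2.47 was the lowest of any peak at the 10 genes. A SLAH4 promoter peak, at chr1:23002952-23003218 with 77 fragments and 1.78-fold, was present in replicate 2 alone, 1422 bp from the nearest peak of replicate 1. It was also annotated to the promoters of AT1G62270 and of the non-coding gene AT1G08487.

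SLAH1 was the only gene of the 10 with a promoter peak in both lists, at sites that did not overlap. Replicate 1 had 80 fragments and 1.72-fold at chr1:23008635-23008902, and replicate 2 had 88 fragments and 2.02-fold at chr1:23009542-23009789. The summits were 827 bp apart, with 639 bp between the peaks. A promoter peak in both lists without a shared site was found for 2.91% of all genes. In each library SLAH1 thus had a peak upstream, while the lists hold no site there that both libraries called.

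**Figure D3:**
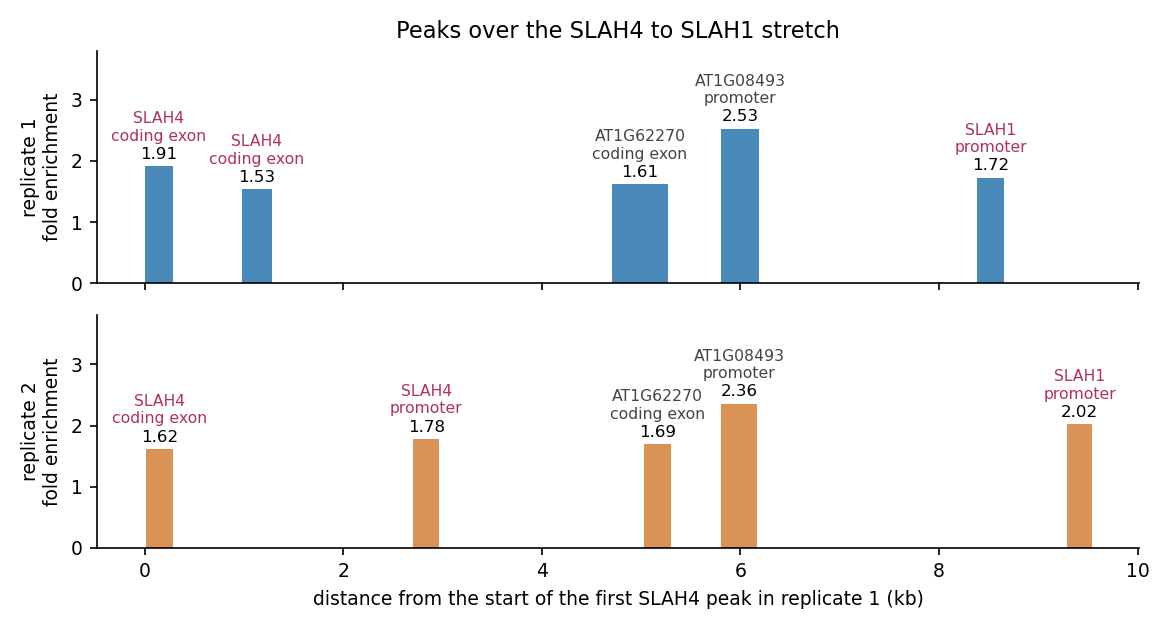
All peaks on the chromosome 1 stretch from SLAH4 to SLAH1, drawn as blocks of their width (distance in kb from the start of the first SLAH4 peak in replicate 1) and fold enrichment (height, printed above), for replicate 1 (upper panel) and replicate 2 (lower panel), with 1 annotated gene and region named per peak. The first SLAH4 peak recurred in both panels, while the SLAH1 promoter peaks and the remaining SLAH4 peaks stood at different places.

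SLAC1, the guard cell channel gene, was labelled in replicate 2 alone, although both libraries had a peak at the site. Replicate 2 had 97 fragments and 2.06-fold enrichment at chr1:4256795-4257510, over coding exons and introns of AT1G12470, the promoter of the non-coding gene AT1G04953 and a coding exon of SLAC1. Replicate 1 had 106 fragments and 2.11-fold at chr1:4256759-4257408, with the same labels except SLAC1. The summits were 5 bp apart and 614 bp were in common, and the peak of replicate 2 ended 102 bp farther on. With such a pair counted for a gene that either list labels, 6 of the 10 genes had a shared peak, against 56.6% of all genes. SLAH2, the root nitrate channel gene without a peak, stands beside UBC9 (AT4G27960), which had 1 peak in replicate 1 and none in replicate 2, and AT4G27980, which had none in either.

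Peaks at the CLC genes were all well below the SLAH3 coding exon peak, from 1.68- to 2.25-fold. CLCD, the trans-Golgi network member, had the strongest of them, over coding exons and introns at chr5:9189780-9190258 in replicate 1. It held 100 fragments and 1.86-fold in replicate 1 and 93 fragments and 2.25-fold in replicate 2. These folds exceeded those of 56.0% of the peaks of replicate 1 and 88.8% of those of replicate 2. Their counting intervals, 1.52 to 2.26 and 1.82 to 2.75, overlapped, and the log2 ratio of replicate 1 to replicate 2, −0.27, was the widest between replicates among the 6 shared peaks. The background worked out from pileup and fold was 53.2 fragments in replicate 1 and 40.8 in replicate 2. This gap was wider than that between the list medians. The higher fold in replicate 2 thus came with fewer fragments and a lower derived background.

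CLCC, the vacuolar chloride-handling member, had 95 fragments and 1.92-fold in replicate 1 and 88 fragments and 1.92-fold in replicate 2, over coding exons and introns at chr5:20290784-20291150 in replicate 1. The peak of replicate 2 was wider, 936 bp against 367 bp in replicate 1, and touched 3 coding exons where that of replicate 1 touched 1. The summits were 46 bp apart, so position and height at CLCC were close between the libraries.

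CLCE, the thylakoid member, had 98 fragments and 1.71-fold in replicate 1 and 78 fragments and 1.68-fold in replicate 2, over coding exons and introns. The peaks were broad and nearly congruent, at chr4:16837084-16838228 in replicate 1 and chr4:16837180-16838187 in replicate 2, yet their summits lay 741 bp apart. Of the 6 shared peaks, this was the one with summits more than 100 bp apart. Over all shared pairs, 65.2% had summits within 100 bp. The CLCE peak was also annotated to the promoters of DRL1 (AT4G35420), AT4G35430 and AKR2 (AT4G35450), so it touched promoters of 3 neighbours and none of its own gene.

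The vacuolar nitrate exchanger genes CLCA and CLCB had no shared peak. CLCA had a promoter peak in replicate 1, at chr5:16386473-16386910 with 73 fragments, 1.69-fold and a −log10 q of 3.57, which was also annotated to the promoter of the non-coding gene AT5G06085. The nearest peak of replicate 2 lay 2018 bp away. CLCB had a peak over a coding exon and intron in replicate 2, at chr3:10024114-10024370 with 75 fragments, 1.79-fold and a −log10 q of 4.38, and replicate 1 had no peak within 4646 bp. At both genes the signal was called in 1 library, and the lists give no values for the other library outside its peaks.

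**Figure D4:**
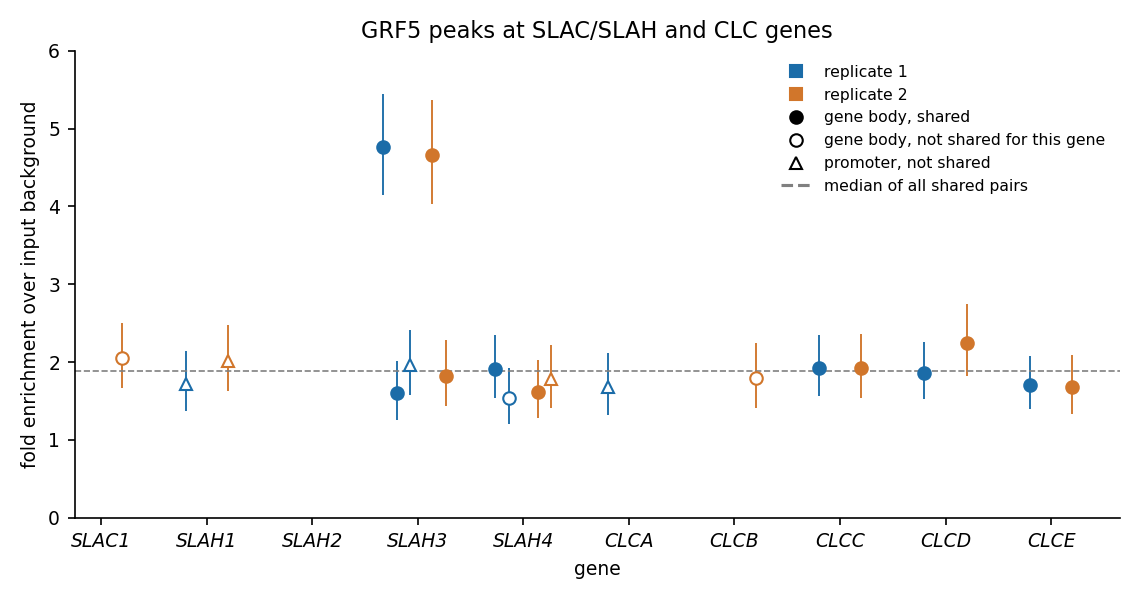
Fold enrichment over the input background of every peak annotated to each of the 10 genes, with 95% exact Poisson intervals of the pileup (counting error only), for replicate 1 (left of each pair) and replicate 2. Circles mark gene-body peaks, meaning a coding exon or intron label of the gene and no promoter label, and triangles promoter peaks. Filled symbols mark shared peaks, and the dashed line the median of all shared pairs, 1.89. The SLAH3 coding exon peak, also labelled intergenic, stood above 4 in both replicates, and every other peak lay between 1.53 and 2.25.

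Apart from SLAH3, the genes were not set apart by strength. The median of the mean fold enrichment was 1.84 over the 6 shared peaks and 1.89 over all 19008 pairs. Without the strong SLAH3 peak it was 1.76 over 5, with means from 1.69 at CLCE to 2.06 at CLCD. The CLCD mean exceeded those of 73.6% of all pairs, CLCC 55.5%, SLAH4 28.7%, the SLAH3 intron peak 20.2% and CLCE 17.8%. The SD of the log2 ratio between replicates was 0.18 over the 6 peaks and 0.19 over all pairs. In replicate 1, 6 of the 10 peaks at these genes had a partner in the other list, and in replicate 2, 7 of 10, where 67.0% and 70.3% of all nuclear peaks did.

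**Figure D5:**
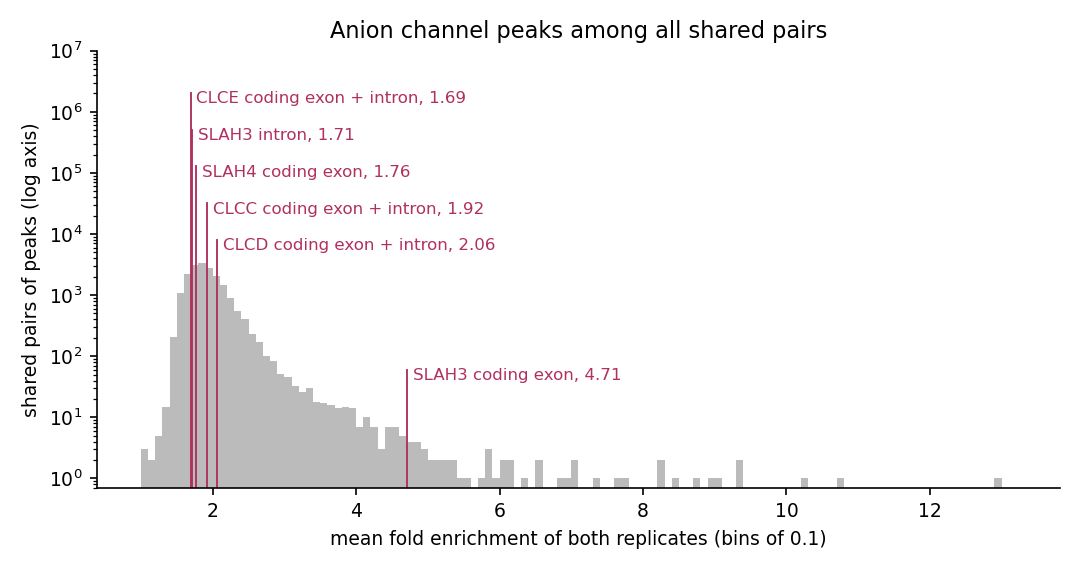
Number of shared pairs (log axis) by mean fold enrichment of both replicates, in bins of 0.1, with the 6 shared anion channel peaks marked by lines whose heights only hold the labels apart. The peaks at CLCE, SLAH4, CLCC, CLCD and the SLAH3 intron lie in the bulk of the distribution, and the SLAH3 coding exon peak at 4.71 lies in its upper tail.

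Promoter peaks were seen at 4 of the 10 genes when a peak in either list sufficed (SLAH1, SLAH3, SLAH4 and CLCA), against 60.2% of all genes. In replicate 1 they were at 3 genes, SLAH1, SLAH3 and CLCA, against 50.3% of all genes, and in replicate 2 at 2, SLAH1 and SLAH4, against 48.1%. Their fold enrichments ran from 1.69 to 2.02. SLAH3, SLAH4 and CLCA had theirs in 1 list alone, as did 22.0% of all genes. No CLC gene had a promoter peak in replicate 2. Peaks in any region were at 7 genes in replicate 1 and 8 in replicate 2, against 70.0% and 68.2% of all genes.

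A list of 16 related genes was set beside the 10, made up of 5 further anion channel and transporter genes and 11 genes for regulators of such channels. Shared promoter peaks were found at 5 of these 16 (31.25%, where the share of all genes is 35.2%). All 5 were among the 11 regulator genes, which make up most of the list, so no contrast with the channel genes is drawn. ABI2 (AT5G57050), a protein phosphatase that holds back abscisic acid signalling and SLAC1, had 1.98-fold in replicate 1 and 2.16-fold in replicate 2 at chr5:23086954-23087850. Its relative ABI1 (AT4G26080) had 2.10- and 1.83-fold at chr4:13223333-13223753. GHR1 (AT4G20940), a receptor-like protein needed for SLAC1 activation, had promoter peaks with means of 1.87 and 1.86. In replicates 1 and 2 the first had 1.89- and 1.86-fold, and the second 1.57- and 2.15-fold. The calcium-dependent kinase genes CPK3 (AT4G23650) and CPK21 (AT4G04720), whose products activate SLAC1 or SLAH3, had means of 1.79 and 1.74. CPK3 had 1.82- and 1.75-fold in replicates 1 and 2, and CPK21 had 1.53- and 1.96-fold. The log2 ratio of replicate 1 to replicate 2 was −0.46 at the second GHR1 peak and −0.36 at CPK21, the widest of these promoter peaks. Most of these peaks were not labelled for the regulator alone. Those of ABI1 and ABI2 were also annotated to a neighbour's promoter, and those of GHR1 and CPK3 to coding exons and introns of neighbours. The CPK21 promoter peak carried no other gene's label.

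None of the 5 further channel and transporter genes had a promoter peak in either list, where 60.2% of all genes did. CLCF (AT1G55620), the Golgi member of the family, had 2 peaks over coding exons and introns in replicate 2, with 1.67- and 1.59-fold, and none in replicate 1. CLCG (AT5G33280), a vacuolar member, had a coding exon and intron peak in replicate 2 with 1.96-fold and none in replicate 1. The malate transporter gene ALMT9 (AT3G18440) had a shared coding exon and intron peak with 2.10- and 1.95-fold. ALMT1 had a peak in replicate 1 alone, and ALMT12, a guard cell anion channel gene, had none. Counting every region, 9 of the 16 carried a shared peak (56.25%, near the 54.4% of all genes). The highest mean among them, at CIPK23 (AT1G30270), a kinase gene of nitrate and potassium uptake named here after its value was seen, was 2.37 over coding exons and introns. No gene of the 16 had a shared peak of at least 3-fold in both lists, where 1.12% of all genes did.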

How the data were processed

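Per the submitters' processing notes, the build was TAIR10 and the tools were MACS2 2.2.7.1, Bowtie2 2.4.6 and Trimmomatic 0.39. Not given in the sources used here were caller settings, read filters and promoter length. Per the file headers, each deposited list holds the summit's pileup signal in fragments, the fold enrichment ratio over the input background, and −log10 p and −log10 q (p-value and q-value of the caller). Peaks were called in each replicate separately. Read totals were not used here; depth is known through the median summit pileup, 85 and 81 fragments.

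The 87571 and 82807 entries were collapsed to peaks by position, organelle peaks were dropped, 1 was added to starts, and overlapping peaks were paired one to one, longest overlap first. Untranslated regions have no class in the authors' annotation. Local background was taken as pileup plus 1 over fold, minus 1. A Poisson tail with it returned the deposited −log10 p to within 0.00465 for peaks below 200 on that scale. Pairing was run on simulated lists and returned the planted pairs. The simulated peaks had no competing partners, so the choice among several overlapping peaks was not tested. Versions were matplotlib 3.10.9, pandas 2.3.3, scipy 1.17.1, numpy 2.4.6 and Python 3.11.15.

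Names and gene types came from a RefSeq table of assembly TAIR10.1 by locus tag; all 10 genes and all 16 related genes matched (SLAC1 is listed as OZS1 there, CPK3 as CDPK6). None of its coordinates were used to assign peaks to genes. The gene order behind the neighbours in the closing section rested on this table. No genome sequence was used, so a planned search for the GRF core motif was not run. The genes and lists were chosen with earlier results of these data known. Named by rule were the 10 genes, genes sharing their peaks, CLCF, CLCG and related genes with a shared promoter peak; UBC9, AT4G27980, ALMT9, ALMT1, ALMT12, CIPK23 and the neighbours in the closing section were added after their values were seen.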

Additional observations from a re-analysis of the deposited data

How the results depend on the processing

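Requiring 1 bp or 90% of overlap left 5 genes with a shared peak (all genes: 55.1% and 47.4%), 0 with a shared promoter peak and 5 related genes with one (all genes: 35.8% and 29.8%). With −log10 q of at least 5, the counts were 3 (all genes: 28.2%), 0 and 3 (16.8%), and the median mean fold of the shared peaks was 2.06. With a fold enrichment of at least 2, they were 1 (SLAH3; all genes: 14.4%), 0 and 0 (8.45%), and the median was 4.71. Leaving out 1 replicate gave 7 to 8 genes in any region (all genes: 68.2 to 70.0%), 2 to 3 with a promoter peak, 5 to 8 related genes with one (48.1 to 50.3%) and a median of 1.79 to 1.87; the cause is the construction, since no match between lists is then asked for. Counting a pair for a gene that either list labels, an alternative chosen after seeing the data, gave 6 (all genes: 56.6%), 0 and 5 (37.8%) with a median of 1.92. Any region in place of the promoter gave 5 of the 10 genes and 9 of the 16. No paired analysis was possible because the results come from no test and the only comparison group is 1 input library. The motif alternatives were not run. Apart from the SLAH3 coding exon peak, the counting intervals of the peaks at the 10 genes began between 1.20- and 1.82-fold; the effect of depth was not tested.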

Other observations

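Of the 19 protein-coding genes that stand next to the 10 in gene order, 13 had a shared peak, where 54.4% of all genes did. For 11 of the 13 there was one outside the peaks that an anion channel gene carried. Another 3 had peaks without a shared one, and 3 had no peak in either list. The sites below were picked after their values were seen, from among the higher ones. AT1G12470, beside SLAC1, had a strongest shared peak with a mean of 2.08, which is the site described above with SLAC1. Between SLAH4 and SLAH1, the strongest site was a shared peak in the promoter of AT1G08493, a non-coding RNA gene, at chr1:23006056-23006439 in replicate 1. It had 114 fragments and 2.53-fold enrichment in replicate 1 and 103 fragments and 2.36-fold in replicate 2, with summits 23 bp apart, and it exceeded 96.3% and 92.6% of the peaks of these lists. Both SLAH genes had lower values in both lists. Beside SLAH4, MEF9 had a strongest shared peak with a mean of 2.14. Beside CLCC, MAD1 (AT5G49880) had one with a mean of 2.22, above the 1.92 of CLCC itself. AT5G24040, on the promoter side of SLAH3, had 2 shared peaks, the stronger with a mean of 2.07. These values are given without a test and with no explanation.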
